A study of Mus musculus with 18 samples.

Results

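Transcripts of 10 BCL2 family genes that govern cell survival and death were followed in mouse macrophages and mouse liver exposed to lipopolysaccharide (LPS), with or without moringa isothiocyanate-1 (MIC-1), an isothiocyanate obtained from seeds of Moringa oleifera. The genes were chosen by symbol: Bcl2, Bcl2l1, Mcl1 and Bcl2a1d among the survival genes, Bax and Bak1 as the effectors, and Bid, Bbc3, Pmaip1 and Bcl2l11 as the BH3-only genes. All 10 were found among the 21441 genes of each of the 2 expression tables, 1 per sample type. Each table held 9 RNA-seq libraries, 3 each for the Control, LPS and LPS + MIC-1 groups, given as FPKM (fragments scaled to transcript length and to library size). All samples carried the label wild type and the strain C57BL/6. The macrophages were RAW264.7, a murine macrophage line, so their libraries came from 1 line. Their MIC-1 dose was 10 µM, their control was solvent, and the LPS concentration and exposure time of the sequenced cultures were not given in the sources used here. The labels of the macrophage samples repeat the mouse doses, and the paper names the strain C57BL/6 for its mice and none for the line. The liver came from male mice. Those of the LPS + MIC-1 group took 80 mg/kg MIC-1 by gavage, dissolved in 10% DMSO, over 3 days of pretreatment, and both LPS groups were given 10 mg/kg LPS into the peritoneum 16 h before tissue was taken, while controls received vehicle and saline. The study had 6 mice per group, of which 3 were sequenced. Neither sample type had a group given MIC-1 alone, so what MIC-1 did was measured only in the presence of LPS.

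BCL2 family proteins decide whether the outer membrane of the mitochondrion stays closed or is opened. Survival members such as BCL2, BCL-XL (encoded by Bcl2l1), MCL1 and A1 (encoded by the Bcl2a1 genes) hold the pore-forming effectors BAX and BAK in check, and BH3-only members such as BID, BIM (Bcl2l11), PUMA (Bbc3) and NOXA (Pmaip1) bind survival members or effectors and favour opening, after which cytochrome c leaves and caspases are activated. In macrophages, inflammatory signals through NF-κB are known to raise survival genes such as Bcl2a1 and Bcl2l1. In hepatocytes, BID links death receptors to the mitochondrion, and MCL1 and BCL-XL are needed to keep the cells alive.

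The genes are scattered over the genome (mm9, GENCODE). Among the survival genes Bcl2 spans chr1:108434755-108610851 and Bcl2l1 chr2:152593052-152657464, both on the minus strand, and Mcl1 lies at chr3:95462643-95467099 on the plus strand. The effectors Bax and Bak1 lie on the minus strand at chr7:52717065-52722268 and chr17:27156755-27165954. The BH3-only gene Bid lies at chr6:120841948-120866871 on the minus strand, and Bbc3 and Bcl2l11 lie on the plus strand at chr7:16894965-16903554 and chr2:127951774-127988283. Values are per gene, with all its annotated transcripts summed.

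One macrophage library has to be set out before the results. Libraries are numbered here by their order in the table within a group. LPS library 2 differed from Control library 2 by a median absolute log2 difference of 0.0732 over the 9905 genes tested, but from LPS libraries 1 and 3 by 0.695 and 0.696. Libraries 1 and 3 of a macrophage group, its closest pair, differed by 0.0671 to 0.0913. Library 2 of the other macrophage groups also stood apart, by 0.155 and 0.163 in Control and by 0.198 and 0.203 in LPS + MIC-1. LPS library 2 goes against its label, and the tests of the 10 genes in macrophages are given with it and without it. Without it the LPS group is only the close pair of libraries 1 and 3, so the p-values of that fit rest on a narrow spread. The FPKM summed to 1137530 and 1132900 in LPS libraries 1 and 3 and to between 557136 and 652486 in the other 7 macrophage libraries. In the liver, libraries 1 and 3 of the LPS group and of the LPS + MIC-1 group lay close together, by 0.162 and 0.112, and library 2 of each lay 0.350 to 0.552 from its partners, while Control library 1 lay 0.427 and 0.477 from the other controls. Depth, estimated from the steps between low values, was 16.1 to 20.6 M reads in macrophages and 4.39 to 17.3 M reads in liver. In macrophages the 8 macrophage markers in the table, of 9 listed, all exceeded 1 FPKM in at least 1 library, though Aif1 was at 0, 0 and 2.35 FPKM in controls and 0 in all LPS libraries. All endothelial, B cell, T and NK cell and cholangiocyte markers were below 1 FPKM. The hepatocyte markers summed to 3.22 to 16.1 FPKM, the Kupffer cell markers to 42.4 to 295 FPKM and the stellate cell and fibroblast markers to at most 2.64 FPKM. In liver the 8 hepatocyte markers summed to between 42878 and 83356 FPKM. Nothing in the tables says that libraries came from separate cultures or which mouse each came from, so the p-values measure the spread between these libraries only.

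In macrophages the effector Bax was the most abundant of the 10 transcripts, at 415 ± 18.4 FPKM in controls (SD, n = 3), and Bcl2 the least, at 2.05 ± 0.0312 FPKM. Between them, the control group means ran from Bak1 at 151 FPKM through Mcl1 at 120 FPKM, Bid at 62.7 FPKM, Bcl2a1d at 39.5 FPKM, Pmaip1 at 22.9 FPKM, Bcl2l1 at 20.3 FPKM and Bbc3 at 16.1 FPKM to Bcl2l11 at 4.21 FPKM. FPKM is per length, so these levels can be compared between genes. In this order Pmaip1 and Bcl2l1 overlapped across the 3 control libraries, as did Bcl2l1 and Bbc3, and all other neighbours were apart. In liver controls Bax was again first, at 43.7 ± 1.37 FPKM, followed by Mcl1 at 28.1 ± 0.540 FPKM, and Bak1 was listed at 0. The 2 tables were normalized separately, so levels were not tested between cells and tissue.

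**Figure D1:**
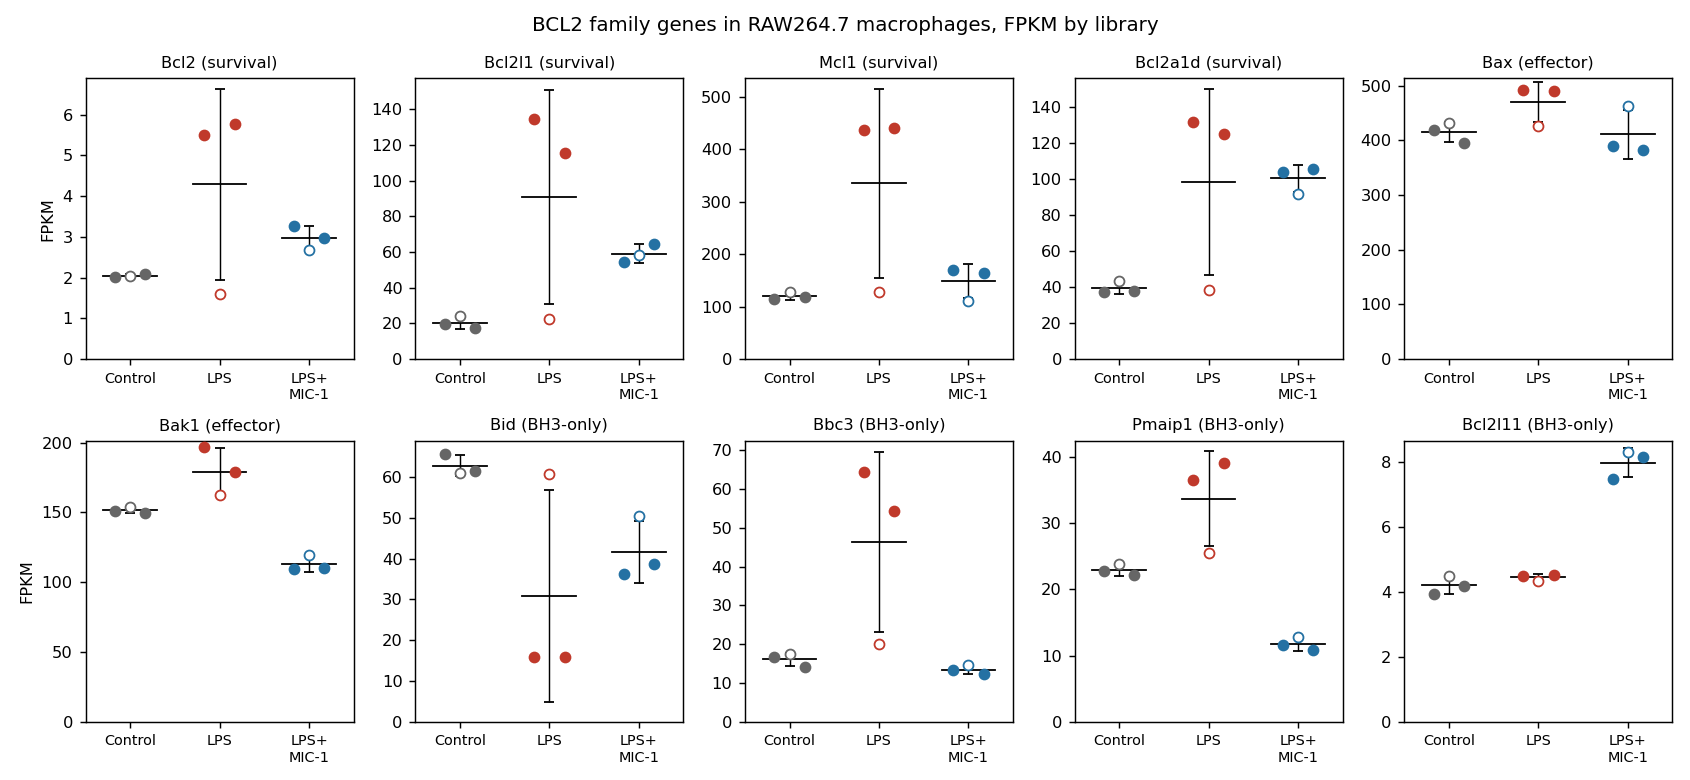
FPKM (y axes, linear, from 0) of the 10 genes in the 9 macrophage libraries by group (x axes). Each point is 1 library, with library 2 of each group drawn open, and lines and bars are the mean ± SD of 3 libraries. The open LPS point lies among or next to the controls in the panels of the 4 survival genes and of Bid, while the 3 LPS + MIC-1 points of Bcl2l11 (7.47 to 8.31 FPKM) lie above all 6 other points.

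With all 9 macrophage libraries, none of the 10 genes passed an adjusted p of 0.05 between LPS and Control (limma), where 0% of all 9905 genes passed. At an unadjusted p below 0.05 the count was 6 of 10, against 49.8% of all genes. Once LPS library 2 was left out, 9 of the 10 genes passed, 8 higher and Bid lower, where 75.2% of all genes passed, 36.9% higher and 38.2% lower. With each library rescaled to the same FPKM sum, the split of the 10 genes became 5 higher and 5 lower, where 82.8% of all genes passed, 11.8% higher and 71% lower. Without LPS library 2, the median Log2FC of the 10 genes was 0.99 before this rescaling, beside −0.02 for all genes tested. After it the median was 0.07, beside −0.93 for all genes. The genes are thus read against a background in which most genes moved. Log2FC is given throughout as a difference of log2(FPKM + 0.5), which understates the change of low genes.

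The survival genes were high in LPS libraries 1 and 3. Bcl2l1, which encodes BCL-XL, measured 19.8, 24.0 and 17.1 FPKM in the Control libraries 1 to 3, 134, 22.5 and 115 FPKM in the LPS libraries and 54.2, 58.4 and 64.5 FPKM in the LPS + MIC-1 libraries. LPS libraries 1 and 3 were the highest of all 9, LPS library 2 lay within the controls, and the LPS + MIC-1 libraries lay between. When LPS library 2 was left out, the Log2FC with LPS was 2.60 ± 0.15 (SE, adjusted p 3.86e-06), a 6.06-fold rise, and with all libraries it was 1.78 ± 0.59 (adjusted p 0.0777). LPS + MIC-1 was lower than LPS by a Log2FC of −1.07 ± 0.15 without LPS library 2 (adjusted p 0.000392) but by only −0.26 ± 0.59 with it (adjusted p 0.775). Rescaling to the same FPKM sum took the first of these to −0.27 (adjusted p 0.0902), so that call was lost, and the second to 0.24. Against controls, LPS + MIC-1 gave a Log2FC of 1.53 in both fits, with an adjusted p of 0.0939 with all libraries and 5.23e-05 without LPS library 2.

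Mcl1, whose short-lived protein restrains BAK, measured 115, 128 and 118 FPKM in controls, 436, 127 and 441 FPKM with LPS and 169, 111 and 165 FPKM with LPS + MIC-1. LPS libraries 1 and 3 stood far above everything else, and the LPS + MIC-1 libraries overlapped the controls. With LPS library 2 left out, Mcl1 rose 3.64-fold with LPS (Log2FC 1.86 ± 0.17, adjusted p 3.26e-05) and was lower with LPS + MIC-1 than with LPS (Log2FC −1.58 ± 0.17, adjusted p 0.000113). With all libraries these were 1.27 ± 0.45 (adjusted p 0.0777) and −0.99 ± 0.45 (adjusted p 0.144). Rescaling to the same sum without LPS library 2 made them 0.87 and −0.78, both still past the threshold. LPS + MIC-1 differed from controls by 0.28 ± 0.45, which did not pass in either fit.

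Bcl2, the founding survival gene of the family, was scarce, at 2.01, 2.05 and 2.08 FPKM in controls, 5.51, 1.59 and 5.78 FPKM with LPS and 3.26, 2.67 and 2.98 FPKM with LPS + MIC-1. Every LPS + MIC-1 library exceeded every control, and LPS library 2 was the lowest of all 9. In the fit without LPS library 2 the Log2FC was 1.27 ± 0.11 for LPS against controls (adjusted p 2.17e-05), −0.83 ± 0.11 for LPS + MIC-1 against LPS (adjusted p 0.000294) and 0.44 ± 0.10 for LPS + MIC-1 against controls (adjusted p 0.00496). After rescaling to the same sum the second was −0.11 (adjusted p 0.398), and that call was lost. With all libraries the 3 values were 0.75 ± 0.39 (adjusted p 0.145), −0.31 ± 0.39 (adjusted p 0.581) and 0.44 ± 0.39 (adjusted p 0.434).

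Bcl2a1d, one of the A1 survival genes induced in activated leukocytes, stayed high with LPS + MIC-1. It measured 37.4, 43.2 and 38.0 FPKM in controls, 132, 38.5 and 125 FPKM with LPS and 104, 91.6 and 105 FPKM with LPS + MIC-1. All 3 LPS + MIC-1 libraries were above all controls, by a Log2FC of 1.33 ± 0.42 with all libraries, at an adjusted p of 0.0499 that was lost when any 1 Control or LPS + MIC-1 library was left out, with adjusted p 0.0967 to 0.14. In the fit without LPS library 2 the adjusted p was 1.4e-05. LPS alone gave 1.11 ± 0.42 against controls with all libraries (adjusted p 0.0785) and 1.69 ± 0.09 without LPS library 2 (adjusted p 3.3e-06). LPS + MIC-1 against LPS was 0.22 ± 0.42 with all libraries (adjusted p 0.727) and −0.35 ± 0.09 without LPS library 2 (adjusted p 0.0099), so the sign rested on that library, and rescaling to the same sum turned the second value to 0.45.

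The A1 genes Bcl2a1a, Bcl2a1b and Bcl2a1d are near-identical neighbours on chromosome 9 (mm9), which bears on how their reads can be told apart. Their coding sequences of 519 bases differ at 6 positions between Bcl2a1b and Bcl2a1d, 7 between Bcl2a1a and Bcl2a1d and 11 between Bcl2a1a and Bcl2a1b, and 94% of the 31-base words of Bcl2a1d also occur in another gene, 613 of 786 of them in Bcl2a1a, 569 in Bcl2a1b and 250 in the gene Mthfs. Bcl2a1d lies at chr9:88618126-88626708 on the minus strand, Bcl2a1a at chr9:88851738-88857254 and Bcl2a1b at chr9:89094047-89102665 on the plus strand. The first 60 coding bases, read 5′ to 3′ from mm9, are shown because they hold 6 of the 12 variable positions, which are in capitals:
Bcl2a1a: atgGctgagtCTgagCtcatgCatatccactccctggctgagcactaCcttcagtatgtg
Bcl2a1b: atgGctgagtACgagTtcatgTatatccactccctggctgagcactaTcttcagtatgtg
Bcl2a1d: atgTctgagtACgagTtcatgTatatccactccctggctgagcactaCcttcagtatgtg
The split of reads between these genes is therefore uncertain, and their sum is given beside each.

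The summed FPKM of Bcl2a1a, Bcl2a1b and Bcl2a1d was 89.6, 93.5 and 85.4 in controls, 362, 88.6 and 365 with LPS alone and 388, 319 and 391.7 with LPS + MIC-1. As deposited, LPS libraries 1 and 3 and the LPS + MIC-1 libraries covered the same range, well above the controls. All genes together summed to 1137530 and 1132900 FPKM in LPS libraries 1 and 3. In the LPS + MIC-1 libraries they summed to 647770 to 652486 FPKM. The A1 sum, Bcl2a1a and Bcl2a1b were not compared after rescaling to the same sum, so the shared range holds for the deposited scaling only. Bcl2a1b made up most of it, with 226, 194 and 229 FPKM in LPS + MIC-1 against 49.97, 46.0 and 45.3 FPKM in controls, a Log2FC of 2.19 ± 0.50 (adjusted p 0.0175). Bcl2a1a measured 58.2, 33.5 and 57.5 FPKM in LPS + MIC-1 and 2.31, 4.30 and 2.11 FPKM in controls, a Log2FC of 3.90 ± 0.77 (adjusted p 0.0104). Between LPS + MIC-1 and LPS without library 2, neither Bcl2a1a (0.28 ± 0.31, adjusted p 0.457) nor Bcl2a1b (0.14 ± 0.09, adjusted p 0.182) passed. Bcl2a1c was listed at 0 in all 18 libraries. Of 9 neutrophil markers listed, 8 were in the table and 3 were tested, of which S100a8 and Mmp8 were higher with LPS + MIC-1 than with LPS and Cxcr2 did not pass. The summed level of the 8 was 3.21 to 5.29 FPKM in controls, 5.56 to 43.9 FPKM with LPS and 691 to 757 FPKM with LPS + MIC-1, and nearly all of it was S100a8, at 651, 676 and 718 FPKM with LPS + MIC-1. Mmp8 made up 35.7, 21.4 and 35.2 FPKM of it there. Cxcr2 and Csf3r stayed below 2 FPKM in all 9 libraries, S100a9, Camp, Ngp and Retnlg were below 1 FPKM, and no marker was at 0 throughout. Their part in the results of the 10 genes was not tested.

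**Figure D2:**
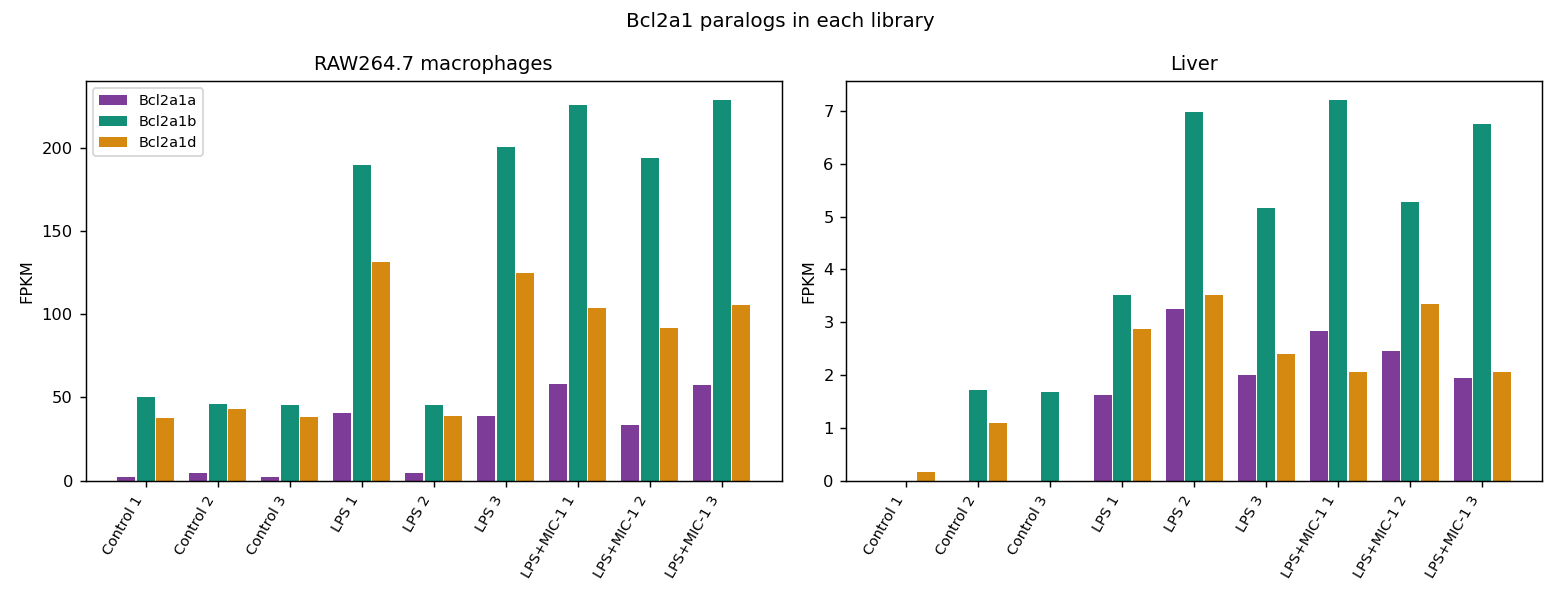
FPKM (y axes, linear) of Bcl2a1a, Bcl2a1b and Bcl2a1d in each of the 9 macrophage libraries (left) and 9 liver libraries (right), with 1 bar per gene and library and no averaging. In macrophages the bars of LPS library 2 match those of the controls, and Bcl2a1b is highest in the LPS + MIC-1 libraries, at 194 to 229 FPKM.

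The effectors moved little with LPS in macrophages, and Bak1 was lower with MIC-1. Bax measured 419, 432 and 396 FPKM in controls, 492, 427 and 490 FPKM with LPS and 390, 463 and 382 FPKM with LPS + MIC-1, and the 3 groups overlapped. No Bax comparison passed with all libraries, with Log2FC between −0.19 ± 0.13 and 0.17 ± 0.13, and LPS + MIC-1 against controls was −0.02 in both fits (adjusted p 0.930 and 0.859). In the fit without LPS library 2, Bax was higher with LPS by 0.24 ± 0.09 (adjusted p 0.0428) and lower with LPS + MIC-1 than with LPS by −0.26 ± 0.09 (adjusted p 0.0358), and both signs turned under rescaling to the same sum. Bak1, the effector that MCL1 and BCL-XL hold inactive, measured 151, 154 and 150 FPKM in controls, 197, 162 and 179 FPKM with LPS and 109, 120 and 110 FPKM with LPS + MIC-1. The 3 groups did not overlap, with LPS + MIC-1 lowest and LPS highest. Bak1 was lower with LPS + MIC-1 than with LPS by a Log2FC of −0.66 ± 0.11 (adjusted p 0.00598), a 1.58-fold difference, and by −0.73 ± 0.07 without LPS library 2 (adjusted p 5.91e-05). Rescaling to the same sum took these to −0.17 (adjusted p 0.549) and 0.07 (adjusted p 0.349), so the call was lost in both fits and the sign turned in the second. Bak1 was also lower with LPS + MIC-1 than in controls, by −0.42 ± 0.11 (adjusted p 0.0258), with an adjusted p of 0.000697 without LPS library 2 and of 0.0721 after rescaling all libraries. With LPS it was higher by 0.24 ± 0.11 with all libraries (adjusted p 0.109) and by 0.31 ± 0.07 without LPS library 2 (adjusted p 0.00425), and this sign turned under rescaling. The call of LPS + MIC-1 against controls was lost without any 1 of 5 Control or LPS + MIC-1 libraries, with adjusted p 0.0757 to 0.103, and kept without the LPS + MIC-1 library 2.

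The 4 BH3-only genes went separate ways in macrophages. Bbc3, which encodes PUMA, measured 16.7, 17.4 and 14.1 FPKM in controls, 64.3, 20.1 and 54.3 FPKM with LPS and 13.3, 14.7 and 12.3 FPKM with LPS + MIC-1. All LPS libraries, library 2 included, lay above all others, and the LPS + MIC-1 libraries overlapped the controls. Bbc3 was 3.01-fold lower with LPS + MIC-1 than with LPS (Log2FC −1.59 ± 0.38, adjusted p 0.0248) and 4.29-fold lower without LPS library 2 (−2.10 ± 0.12, adjusted p 7.63e-06). The call was lost without LPS library 1 or 3 or any 1 LPS + MIC-1 library, with adjusted p 0.0627 to 0.086, and rescaling to the same sum left −1.10 (adjusted p 0.0126) and −1.31 (adjusted p 2.1e-05) in the 2 fits. LPS + MIC-1 against controls did not pass in either fit. The rise with LPS was 1.34 ± 0.38 (adjusted p 0.0777) with all libraries and 1.85 ± 0.12 (adjusted p 7.07e-06) without LPS library 2.

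Pmaip1, which encodes NOXA, the partner that targets MCL1, measured 22.8, 23.9 and 22.1 FPKM in controls, 36.5, 25.6 and 39.1 FPKM with LPS and 11.5, 12.7 and 10.8 FPKM with LPS + MIC-1. The 3 groups did not overlap, with LPS highest and LPS + MIC-1 lowest. Pmaip1 was 2.77-fold lower with LPS + MIC-1 than with LPS (Log2FC −1.47 ± 0.17, adjusted p 0.00149) and 1.93-fold lower than in controls (−0.95 ± 0.17, adjusted p 0.00656). Both calls held without any 1 library, with adjusted p at most 0.012 and 0.0352. Without LPS library 2 they were −1.65 ± 0.09 (adjusted p 5.21e-06) and −0.95 ± 0.08 (adjusted p 3.95e-05), and after rescaling all libraries to the same sum −0.99 (adjusted p 0.00653) and −1.13 (adjusted p 0.0037). The rise with LPS was 0.52 ± 0.17 (adjusted p 0.0777) with all libraries and 0.71 ± 0.09 (adjusted p 0.000147) without LPS library 2, and its sign turned under rescaling to the same sum, to −0.15 and −0.27.

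Bcl2l11, which encodes BIM, was the only one of the 10 genes higher with LPS + MIC-1 than with LPS at an adjusted p below 0.05 in the fit of all 9 libraries. It measured 3.95, 4.50 and 4.19 FPKM in controls, 4.49, 4.33 and 4.52 FPKM with LPS and 7.47, 8.31 and 8.16 FPKM with LPS + MIC-1. The LPS libraries overlapped the controls, LPS library 2 among them, and the LPS + MIC-1 libraries lay above all 6. The Log2FC was 0.78 ± 0.12 against LPS (adjusted p 0.00422) and 0.85 ± 0.12 against controls (adjusted p 0.00261), the first a 1.71-fold rise. Both held without any 1 library, with adjusted p at most 0.0282 and 0.021, and without LPS library 2 they were 0.76 ± 0.09 (adjusted p 0.000187) and 0.85 ± 0.08 (adjusted p 8.36e-05). Rescaling all libraries to the same sum gave 1.22 (adjusted p 0.0128) and 0.68 (adjusted p 0.0849), so the second call was lost. LPS alone gave 0.07 ± 0.12 with all libraries and 0.09 ± 0.09 without LPS library 2, neither of which passed.

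Bid, which caspase-8 cleaves to carry a death receptor signal to mitochondria, went the other way from the survival genes. It measured 65.7, 60.9 and 61.6 FPKM in controls, 15.8, 60.9 and 15.9 FPKM with LPS and 36.2, 50.3 and 38.6 FPKM with LPS + MIC-1. LPS libraries 1 and 3 were the lowest of all 9, and the LPS + MIC-1 libraries lay below all controls and above those libraries. In the fit without LPS library 2, Bid fell 3.87-fold with LPS (Log2FC −1.95 ± 0.13, adjusted p 7.74e-06) and was 2.56-fold higher with LPS + MIC-1 than with LPS (1.36 ± 0.13, adjusted p 6.76e-05). With all libraries the values were −1.32 ± 0.47 (adjusted p 0.0777) and 0.72 ± 0.47 (adjusted p 0.289). LPS + MIC-1 against controls was −0.60 in both fits, with an adjusted p of 0.379 with all libraries and 0.00315 without LPS library 2. Of its 31-base words 19.5% also occur in its neighbour Bcl2l13, so part of its signal could be shared with that gene.

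In all, 4 of the 10 genes passed between LPS + MIC-1 and LPS with all macrophage libraries, namely Bcl2l11 higher and Bak1, Bbc3 and Pmaip1 lower, where 21.6% of all genes passed, 10.2% higher and 11.4% lower. After rescaling 3 were left, without Bak1, where 16% of all genes passed, 12.4% higher and 3.57% lower. With LPS library 2 left out all 10 passed, 2 higher and 8 lower, where 68% of all genes passed, 34% higher and 34.1% lower, and rescaling to the same sum made this 4 higher and 3 lower, where 77.8% of all genes passed, 67.3% higher and 10.5% lower. Between LPS + MIC-1 and Control 4 passed with all libraries, namely Bcl2a1d and Bcl2l11 higher and Bak1 and Pmaip1 lower, against 24.8% of all genes, 11.8% higher and 13% lower. Rescaling left Bcl2a1d and Pmaip1, where 14.3% of all genes passed, 7.55% higher and 6.79% lower. In the fit without LPS library 2 these were 7, 4 higher and 3 lower, against 60.3% of all genes, 28.1% higher and 32.2% lower. After rescaling the latter were 4 higher and 5 lower, where 63% of all genes passed, 20.4% higher and 42.6% lower. At the stricter threshold used in the study, an adjusted p below 0.01 and an absolute Log2FC above 1, Pmaip1 alone passed between LPS + MIC-1 and LPS with all libraries, against 3.87% of all genes. The 3 comparisons share libraries, so they are given side by side and not as separate evidence.

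Rescaling to the same FPKM sum moved the changes of all 10 genes, large and small, while median-of-ratios scaling hardly moved them. Under the latter, with all libraries, 4 genes again passed between LPS + MIC-1 and LPS, beside 21.7% of all genes. Bak1 then kept its call in that comparison, at −0.65 (adjusted p 0.00596). Rescaling each macrophage library to the same FPKM sum moved the median Log2FC of all genes between LPS and Control from −0.03 to −0.65 with all libraries, and from −0.02 to −0.93 without LPS library 2. Under that rescaling, without LPS library 2, the Log2FC with LPS turned negative for Bak1 (−0.68), Bax (−0.75), Pmaip1 (−0.27) and Bcl2l11 (−0.79), and that of LPS + MIC-1 against LPS turned positive for Bak1 (0.07), Bax (0.54) and Bcl2a1d (0.45). The larger changes in this fit kept their sign but not their size. With LPS, Mcl1 went from 1.86 to 0.87, Bcl2l1 from 2.60 to 1.62 and Bid from −1.95 to −2.92. With LPS + MIC-1 against LPS, Mcl1 went from −1.58 to −0.78, Bbc3 from −2.10 to −1.31 and Bcl2l1 from −1.07 to −0.27. Relative to the median of all genes, which removes this shift, Bak1 stood at 0.33 and 0.25 with LPS under the scalings as deposited and rescaled, Pmaip1 at 0.73 and 0.66, Bcl2l1 at 2.62 and 2.55, Mcl1 at 1.89 and 1.81 and Bid at −1.93 and −1.99. Bcl2l11 with LPS + MIC-1 against LPS stood at 0.75 and 0.74 relative to that median.

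**Figure D3:**
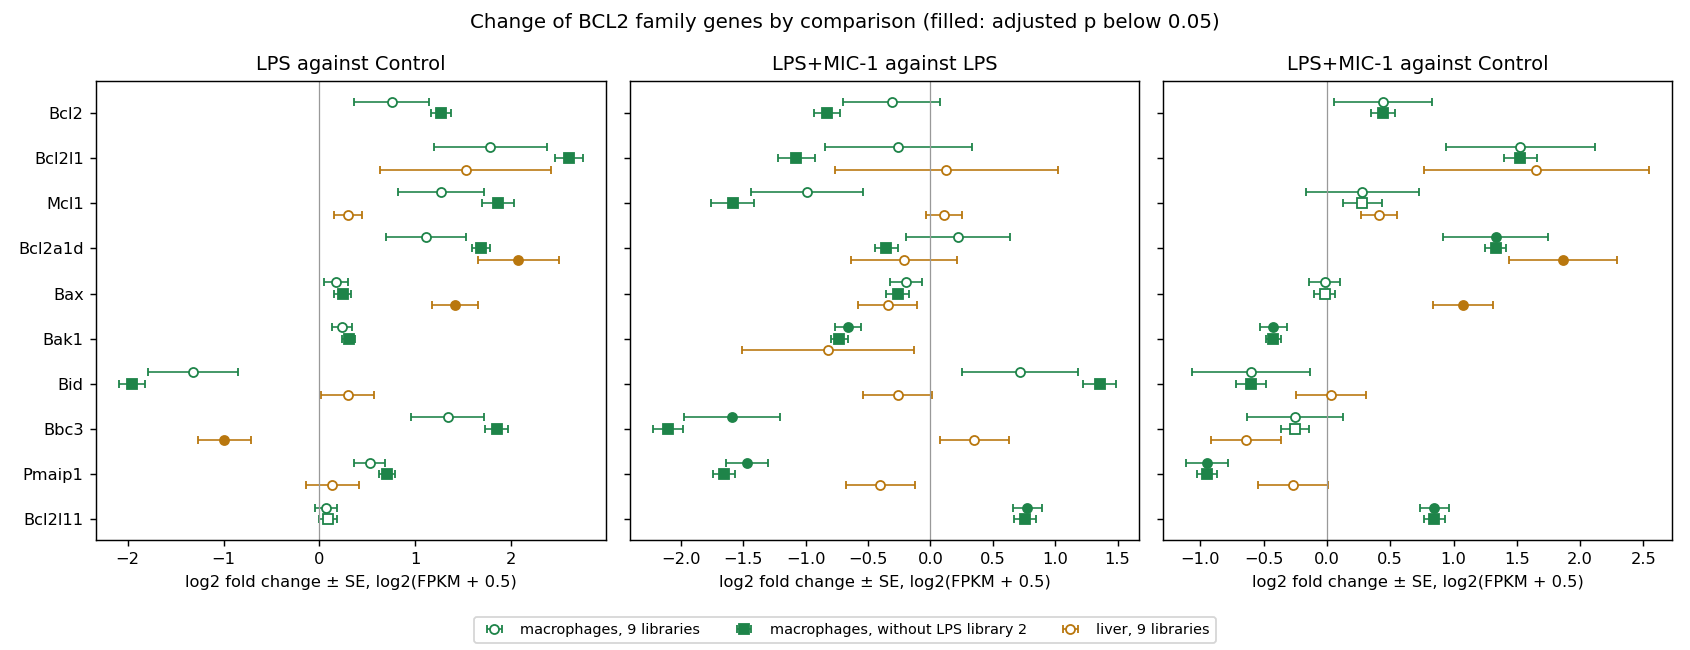
Log2FC ± SE (x axes, differences of log2(FPKM + 0.5)) of the 10 genes (y axis) in the 3 comparisons, for macrophages with 9 libraries (green circles), macrophages without LPS library 2 (green squares) and liver with 9 libraries (orange circles), filled where the adjusted p was below 0.05. Leaving out LPS library 2 shrinks the error bars in macrophages, for Bcl2l1 with LPS from 0.59 to 0.15. Genes below the expression filter in liver, and liver Bak1 against controls at 0, are not drawn.

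The balance within each library was also described, as the share of each class in the summed FPKM of the 10 genes. The survival genes Bcl2a1a and Bcl2a1b are not among the 10 and are left out of these shares. Bcl2a1d held 36.4% and 34.3% of the FPKM of the A1 genes in LPS libraries 1 and 3. With LPS + MIC-1 it held 26.8% to 28.7%. The survival share thus leaves out most A1 signal, and more of it with LPS + MIC-1. Shares with all A1 genes were not taken. The survival share was 20.4%, 22.2% and 21.3% in macrophage controls, 46.6%, 21.3% and 46.8% with LPS alone and 36.8%, 28.3% and 37.5% with LPS + MIC-1. The effector share mirrored it, at 65.8% to 66.8% in controls, 45.4% and 45.5% in LPS libraries 1 and 3, and 54.7% to 62.5% with LPS + MIC-1. The ratio of Mcl1 to the sum of Bbc3 and Pmaip1 was 2.90 to 3.25 in controls, 4.33, 2.79 and 4.72 with LPS alone and 6.83, 4.06 and 7.12 with LPS + MIC-1. The ratio of Bbc3 to Bcl2l11 was 3.38 to 4.24 in controls, 14.3, 4.63 and 12.0 with LPS alone and 1.78, 1.77 and 1.51 with LPS + MIC-1, so the 3 groups did not overlap for this ratio. Ratios within a library do not depend on the scaling between libraries. They concern transcripts and not proteins.

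**Figure D4:**
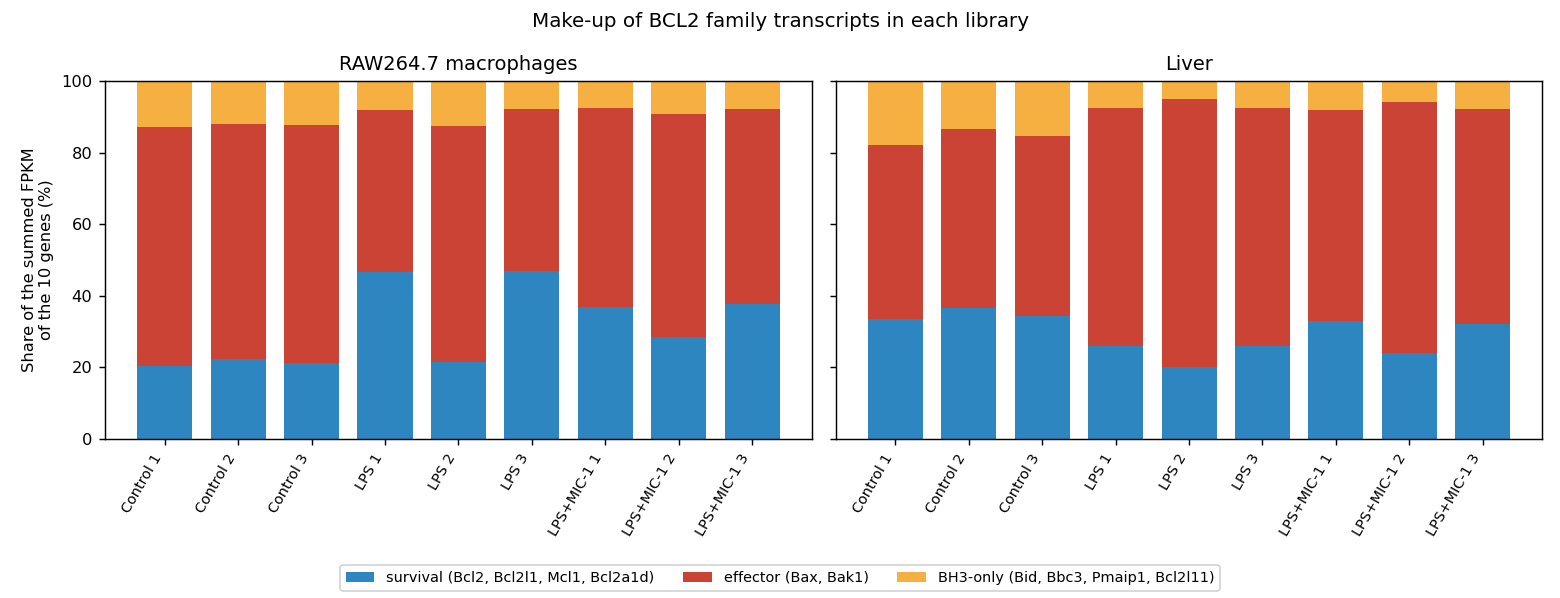
Share (y axis, % of the summed FPKM of the 10 genes) of the survival, effector and BH3-only classes in each of the 9 macrophage libraries (left) and 9 liver libraries (right), 1 stacked bar per library. Bcl2a1a and Bcl2a1b are not counted. The survival share is 46.6% and 46.8% in macrophage LPS libraries 1 and 3 and at most 22.2% in the controls, while in liver it is 20.04% to 26.1% with LPS and 33.4% to 36.6% in controls.

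In liver Bax, the most abundant of the 10 genes there, rose with LPS. It measured 45.2, 42.6 and 43.3 FPKM in controls, 103, 136 and 115 FPKM with LPS and 76.4, 132 and 78.1 FPKM with LPS + MIC-1. Every library of mice given LPS exceeded every control, and the LPS + MIC-1 libraries 1 and 3 were below all LPS libraries while library 2 lay among them. Bax rose 2.67-fold with LPS (Log2FC 1.41 ± 0.24, adjusted p 0.00507) and 2.10-fold with LPS + MIC-1 (1.07 ± 0.24, adjusted p 0.0106), and the difference of LPS + MIC-1 from LPS was −0.34 ± 0.24 (adjusted p 0.997). Both calls held without any 1 library, with adjusted p at most 0.0242 and 0.0392. Both were lower after rescaling to the same sum, at 1.05 (adjusted p 0.0131) and 0.42 (adjusted p 0.199), so the call of LPS + MIC-1 against controls was lost. In a bulk tissue a change in the number of cells of a type and a change in RNA per cell cannot be told apart.

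Bak1 in liver was listed at 0 in all 3 controls, at 17.8, 3.30 and 14.8 FPKM with LPS and at 7.52, 1.82 and 9.94 FPKM with LPS + MIC-1. All 6 libraries of mice given LPS were above the controls, with library 2 the lowest in each group. It passed against controls with LPS (adjusted p 0.00415) and with LPS + MIC-1 (adjusted p 0.0071), but no fold is given against groups listed at 0. Of the genes tested, 96 were listed at 0 in all 3 liver controls, and 16 of them exceeded 1 FPKM in all 6 others. Some genes used in every cell were also low in controls. Rab7 was listed at 8.88, 0 and 4.42 FPKM in controls, 91.5, 4.89 and 79.3 FPKM with LPS and 43.7, 9.92 and 47.2 FPKM with LPS + MIC-1. Gusb was listed at 0 in 2 of 3 controls. Eif4g1 measured 27.5, 6.08 and 0 FPKM in controls, and Gapdh, at 430, 68.1 and 27.7 FPKM, was at 0 in none. What those values, or the lower depth of the controls, have to do with the Bak1 result was not tested.

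Among the survival genes in liver, Bcl2a1d rose from 0.159, 1.09 and 0 FPKM in controls to 2.86, 3.52 and 2.40 FPKM with LPS and 2.07, 3.35 and 2.06 FPKM with LPS + MIC-1. No library of mice given LPS overlapped the controls. The Log2FC was 2.08 ± 0.42 with LPS (adjusted p 0.00923) and 1.86 ± 0.42 with LPS + MIC-1 (adjusted p 0.0117), and the level rested on an estimated 0 to 30 reads per library. The summed FPKM of Bcl2a1a, Bcl2a1b and Bcl2a1d was 0.159, 2.81 and 1.68 in controls, 8.01, 13.7 and 9.57 with LPS alone and 12.1, 11.1 and 10.8 with LPS + MIC-1. Of 9 neutrophil markers listed, 8 were in the table and 7 were tested, and with LPS 6 were higher and Cxcr2 was lower. Cxcr2, a receptor of neutrophils, measured 26.5, 42.6 and 36.2 FPKM in controls, 7.19, 10.1 and 3.89 FPKM with LPS and 4.32, 7.79 and 3.59 FPKM with LPS + MIC-1. The summed level of the 8 was 37.0 to 52.4 FPKM in controls, most of it Cxcr2, and 351 to 448 FPKM with LPS and 191 to 460 FPKM with LPS + MIC-1, most of it S100a8 (141 to 339 FPKM in these 6 libraries). None was at 0 throughout, and Csf3r was below 1 FPKM in every library. The 8 macrophage markers, of which 1 was at 0 throughout and Aif1 and Ptprc were below 1 FPKM, summed to 31.5 to 53.01 FPKM in controls, 86.0 to 127 FPKM with LPS and 85.6 to 128 FPKM with LPS + MIC-1. Of the 6 tested, Itgam, Laptm5 and Mpeg1 were higher with LPS than in controls and 3 did not pass, where 34.7% of all genes passed. Of 5 tested Kupffer cell markers, Marco was higher, Clec4f and Vsig4 were lower and 2 did not pass. The part of these markers, or of the lower depth of the controls, in the Bcl2a1d result was not tested.

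Bcl2l1 in liver measured 1.52, 1.39 and 0.834 FPKM in controls, 9.84, 0.612 and 10.1 FPKM with LPS and 8.65, 1.64 and 7.62 FPKM with LPS + MIC-1. Library 2 of each treated group stayed near the controls, and LPS library 2 was the lowest of all 9. The Log2FC with LPS was 1.53 ± 0.89 with all libraries (adjusted p 0.203) and 2.61 ± 0.60 without LPS library 2 (adjusted p 0.0104), so the call turned on 1 library. The same held for LPS + MIC-1 against controls, at 1.65 ± 0.89 (adjusted p 0.171) and 1.65 ± 0.53 (adjusted p 0.0390). Mcl1 was even across mice, at 28.7, 27.8 and 27.7 FPKM in controls, 34.1, 32.2 and 37.9 FPKM with LPS and 35.8, 39.7 and 37.0 FPKM with LPS + MIC-1. All treated libraries were above all controls, by a Log2FC of 0.30 ± 0.14 (adjusted p 0.131) and 0.41 ± 0.14 (adjusted p 0.0532), which did not pass. Without LPS library 2 the second passed (0.41 ± 0.12, adjusted p 0.0260) and the first did not (0.35 ± 0.13, adjusted p 0.0593), so this call too turned on 1 library. The sign of Mcl1 turned under rescaling to the same sum, to −0.06 and −0.23. Bcl2 was below 1 FPKM in every liver library, from 0.342 to 0.975 FPKM, and stayed under the filter on low values.

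**Figure D5:**
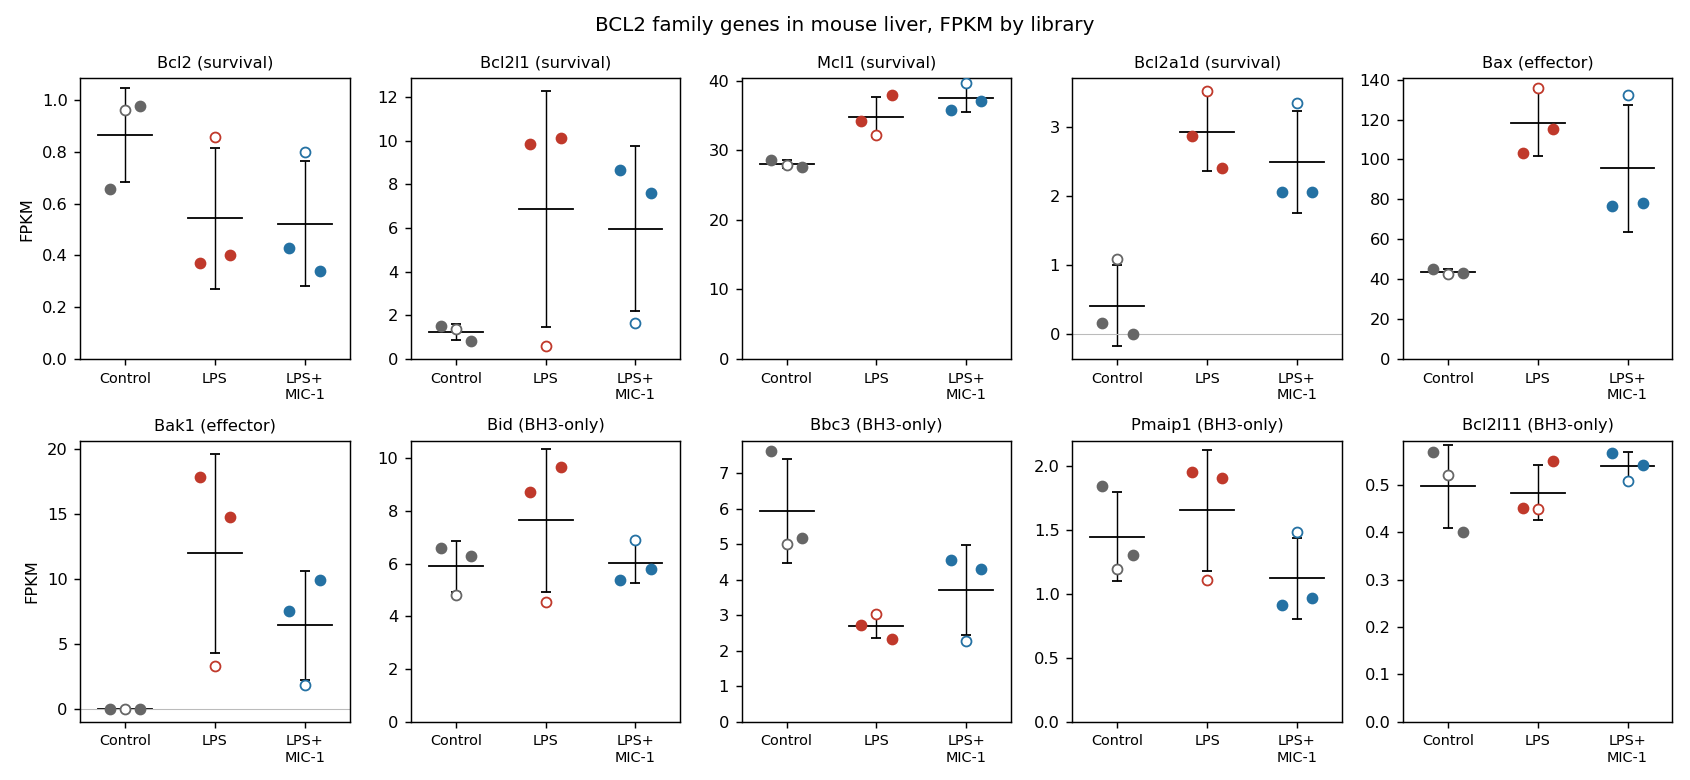
FPKM (y axes, linear) of the 10 genes in the 9 liver libraries by group (x axes), drawn like the plot for macrophages. The 6 Bax points of mice given LPS (76.4 to 136 FPKM) lie above all controls, Bak1 is at 0 in all 3 controls, and the open points of Bcl2l1 in the LPS and LPS + MIC-1 groups lie at 0.612 and 1.64 FPKM, away from their partners.

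The BH3-only genes of the liver included 1 that fell. Bbc3 measured 7.64, 5.01 and 5.18 FPKM in controls, 2.72, 3.04 and 2.34 FPKM with LPS and 4.57, 2.27 and 4.30 FPKM with LPS + MIC-1. All controls lay above all other libraries, and LPS + MIC-1 overlapped LPS. The fall with LPS was 1.99-fold (Log2FC −0.99 ± 0.28, adjusted p 0.0258), a call that was lost without any 1 of the controls or without LPS library 1 or 3, with adjusted p 0.0516 to 0.0941. With LPS + MIC-1 it was −0.64 ± 0.28 against controls (adjusted p 0.0986), which became −1.23 and passed under rescaling to the same sum (adjusted p 0.00619). Bid, at 4.55 to 9.66 FPKM, and Pmaip1, at 0.915 to 1.95 FPKM, did not pass in any comparison of all liver libraries. For Bid without LPS library 2 the Log2FC with LPS was 0.61 ± 0.19 (adjusted p 0.0317). Bcl2l11, the gene that rose with MIC-1 in macrophages, was at 0.401 to 0.569 FPKM in all liver libraries, below the filter and with an estimated 14 to 41 reads. In a fit with no filter its Log2FC was 0.08 ± 0.14 for LPS + MIC-1 against LPS (adjusted p 1).

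Of the 8 genes tested in liver, 4 passed between LPS and Control, with Bcl2a1d, Bax and Bak1 higher and Bbc3 lower, where 34.7% of all 10147 genes passed, 19.2% higher and 15.5% lower. After rescaling, 3 were higher and 1 was lower, where 35.4% of all genes passed, 11% higher and 24.4% lower. Leaving out LPS library 2 gave 6, 5 higher and 1 lower, against 49% of all genes, 27.5% higher and 21.5% lower. Between LPS + MIC-1 and Control 3 passed, Bcl2a1d, Bax and Bak1, all higher, against 36.4% of all genes, 20.1% higher and 16.3% lower. Rescaling to the same sum made the latter 2 higher (Bak1 and Bcl2a1d) and 1 lower (Bbc3), where 41.2% of all genes passed, 7.22% higher and 33.9% lower. Leaving out LPS library 2, which narrows the shared estimate of the spread, made it 5, with Mcl1 and Bcl2l1 added, all higher, against 45.2% of all genes, 25.6% higher and 19.6% lower. Between LPS + MIC-1 and LPS none passed (limma), where 0% of all genes passed, and none had an unadjusted p below 0.05, against 3.59% of all genes. Leaving out LPS library 2 also gave none at the adjusted threshold, against 0.355% of all genes, and 3 at an unadjusted p below 0.05, against 15.3%.

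The wider pathway was described in the same fits, from 5 lists of genes around the family. Between LPS + MIC-1 and LPS in macrophages, the shares of all genes to read these counts against are the 21.6% with all libraries and the 68% without LPS library 2 given above. The lists were not counted after rescaling to the same sum. Under that scaling, without LPS library 2, 67.3% of all genes were higher and 10.5% lower. Whether the genes of these lists keep their direction under it was not tested. The first list holds 15 tested genes of the apoptosome, caspases and IAPs (inhibitors of apoptosis). Of these, 2 passed with all libraries, both higher, a share below that of all genes. Birc3, which encodes the inhibitor cIAP2, gave 1.22 (adjusted p 0.0111) and 1.46 without LPS library 2 (adjusted p 0.000148), and the executioner caspase gene Casp6 gave 1.05 (adjusted p 0.0315) and 1.38 (adjusted p 5.72e-05). Without LPS library 2, 9 of the 15 were higher and 3 lower. With LPS against controls none of the 15 passed with all libraries, where 0% of all genes did. Leaving out LPS library 2 gave 3 higher and 10 lower, with a median Log2FC of −0.85 beside −0.02 for all genes, of which 75.2% passed, 36.9% higher and 38.2% lower.

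Of the 11 tested genes of the death receptor arm, 2 were higher and none lower between LPS + MIC-1 and LPS with all libraries, a share close to that of all genes. These were Ripk3, which drives necroptosis, at 1.56 (adjusted p 0.0307) and Casp8, whose protease cleaves BID, at 0.66 (adjusted p 0.0378). Without LPS library 2 they stood at 2.11 (adjusted p 2.89e-06) and 0.83 (adjusted p 0.000925), and the count was 7 higher and none lower, where 34% of all genes were higher and 34.1% lower. With LPS against controls it was then 2 higher and 6 lower, where 36.9% of all genes were higher and 38.2% lower.

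Ripk3 illustrates the values behind these counts. It measured 47.7, 48.4 and 50.2 FPKM in macrophage controls, 15.1, 48.6 and 15.1 FPKM with LPS and 63.4, 75.4 and 62.6 FPKM with LPS + MIC-1. LPS libraries 1 and 3 were far below the rest and the LPS + MIC-1 libraries above it. Among 11 tested genes of survival kinases and transcription factors, Pim2 and Nfkb1 were higher with LPS + MIC-1 than with LPS in the fit of all libraries. None was lower, a share close to that of all genes. Pim2, a kinase that phosphorylates the BH3-only protein BAD, measured 5.32, 5.08 and 5.39 FPKM in controls, 19.9, 5.62 and 19.7 FPKM with LPS and 53.6, 35.0 and 54.2 FPKM with LPS + MIC-1. Its Log2FC against LPS was 1.79 with all libraries (adjusted p 0.0263) and 1.22 without LPS library 2 (adjusted p 0.00055). Nfkb1, which encodes a subunit of NF-κB, changed by 0.72 (adjusted p 0.00543) and by 0.67 without LPS library 2 (adjusted p 0.000496).

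Among 11 tested regulators of the members, 1 was lower and 1 higher with LPS + MIC-1 than with LPS, again close to the 21.6% of all genes. Vdac1, a channel of the outer mitochondrial membrane, was lower (−0.84, adjusted p 0.00314, and −0.93 without LPS library 2, adjusted p 2.1e-05) and Fbxw7, a ligase subunit that marks MCL1 for degradation, was higher (0.62, adjusted p 0.0266, and 0.74, adjusted p 0.000574). Ddit3, which encodes the stress factor CHOP, measured 71.1, 125 and 69.0 FPKM in controls, 652, 126 and 586 FPKM with LPS and 426, 375 and 424 FPKM with LPS + MIC-1, so that all LPS + MIC-1 libraries were above all controls (2.26, adjusted p 0.0264, and 8.05e-05 without LPS library 2). Of 9 tested other BCL2 family genes, 2 passed between LPS + MIC-1 and LPS, Bnip3, a mitophagy receptor, higher (1.37, adjusted p 0.00576, and 1.38 without LPS library 2, adjusted p 0.00148) and Bcl2l13 lower (−0.46, adjusted p 0.0466, and −0.57, adjusted p 0.000976).

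In liver, the counts for LPS against controls stand beside 34.7% of all genes, 19.2% higher and 15.5% lower. Of the 10 tested genes of the death receptor arm, 5 were higher and 1 was lower, with a median Log2FC of 0.73 beside 0.15 for all genes. The TNF receptor gene Tnfrsf1a rose by 1.85 (adjusted p 0.00615) and Tnfrsf10b, a TRAIL receptor, fell by 2.05 on the log2 scale (adjusted p 0.0283). Other family genes gave 3 higher and 1 lower of 10. The list of survival kinases and transcription factors gave 3 higher of 11, namely Pim3, Rela and Stat3, led by Stat3 at 1.74 (adjusted p 0.00566). Below the share of all genes lay the apoptosome list, with 1 higher (Diablo, 1.29, adjusted p 0.00566) of 13, and the regulators, with 1 higher (Ddit3, 2.03, adjusted p 0.00752) and 1 lower (Huwe1, −0.89, adjusted p 0.0125) of 9. None of the 5 lists held a gene that passed between LPS + MIC-1 and LPS in liver.

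Promoters were read for shared letters, since several members moved together. RefSeq promoter windows, matched by symbol, were at hand for 9 of the 10 genes in 14 windows, and the 250 bases before each start were searched on both strands for 6 motifs. The NF-κB consensus was found in Bcl2l1 (1 of 3 starts) and in Bbc3 (1 of 3 starts), and in 7.25% of 32851 promoters. These shares are per window, so a gene with more starts has more chances of a match. The AP-1 motif TGANTCA was found in Bcl2a1d, and in its neighbours Bcl2a1a and Bcl2a1b, and in 6.75% of promoters. The FOXO motif GTAAACA was found in 1 start of Bcl2l11, in another start of Bbc3 and in 3.17% of promoters. The antioxidant response element TGACNNNGC was found in 1 start of Bcl2l1 and in 10.2%, and the p53 half-site consensus in Bax and in 7.13%. The STAT motif TTCNNNGAA was in none of the 14 windows and in 7.02% of promoters. None of the 6 was in the windows of Mcl1, Bcl2, Bid or Bak1. A match is a match of letters only.

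The 60-base stretches around the matches of 4 of the motifs are printed 5′ to 3′ on the strand of the gene with the motif in capitals, from mm9 at the place where the RefSeq promoter (GRCm38.p6) matched exactly and once. Bcl2l1 and Bbc3 were high in LPS libraries 1 and 3, as were Mcl1, Bcl2 and Bcl2a1d, whose windows lack the NF-κB consensus. The stretches of Bcl2l1 and Bbc3 hold it:
Bcl2l1, chr2:152656644-152656703, minus strand: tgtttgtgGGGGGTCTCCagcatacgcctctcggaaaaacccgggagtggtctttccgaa
Bbc3, chr7:16894770-16894829, plus strand: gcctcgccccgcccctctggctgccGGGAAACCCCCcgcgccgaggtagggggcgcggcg
Those of the A1 genes share the AP-1 motif and nearly all letters around it:
Bcl2a1d, chr9:88626770-88626829, minus strand: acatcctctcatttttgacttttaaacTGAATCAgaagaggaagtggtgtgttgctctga
Bcl2a1a, chr9:88851611-88851670, plus strand: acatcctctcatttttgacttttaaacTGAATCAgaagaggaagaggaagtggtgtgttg
Bcl2a1b, chr9:89093920-89093979, plus strand: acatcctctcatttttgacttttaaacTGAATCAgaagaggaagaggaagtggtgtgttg
The FOXO motif was found in Bcl2l11, higher with LPS + MIC-1 than with LPS in macrophages, and in Bbc3, lower in the same comparison, where it reads on the opposite strand:
Bcl2l11, chr2:127951524-127951583, plus strand: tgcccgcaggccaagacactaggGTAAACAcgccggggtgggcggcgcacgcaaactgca
Bbc3, chr7:16895416-16895475, plus strand: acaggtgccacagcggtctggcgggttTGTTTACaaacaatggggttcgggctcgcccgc
That of Bax, higher with LPS in liver, holds the p53 half-site consensus:
Bax, chr7:52722435-52722494, minus strand: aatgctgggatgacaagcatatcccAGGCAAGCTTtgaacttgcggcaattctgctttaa

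The genes whose pattern was most like a member's were listed for the 2 members with the widest range of group means in each table, as correlations of log2(FPKM + 0.5) over 9 libraries that share groups, with no test. In macrophages Bcl2l1 was most like Lemd2 (r = 0.997), Atp6v1e1 and Pef1 (both r = 0.996), and Bbc3 was most like Rpl5 (r = 0.999), Rpl21 (r = 0.996) and Tef (r = 0.995). In liver Bak1 was most like Tap2 (r = 0.988), Qars (r = 0.985) and 2700029M09Rik (r = 0.984), and Bcl2a1d was most like Mnda (r = 0.987), Eid1 (r = 0.971) and Ms4a6d (r = 0.970). Mnda and Ms4a6d are known as genes of myeloid cells.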

How the data were processed

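Libraries were of RNA from macrophages and liver, 9 of each. The authors pseudoaligned reads to a RefSeq transcriptome of mm9 with kallisto 0.45.0, summed transcripts to genes with tximport, and used DESeq2 1.20.0 to make the FPKM values they deposited, which are normalized within each table. The column headers give the group and no replicate number, so libraries were numbered by table order. The authors' comparison tables also hold fold changes and p-values, which were not used. From 2 of them the deposited baseMean, a signal (mean normalized count over the libraries of a sample type), was used to turn FPKM into estimated reads, with the depth taken as the scale that put most low values within 0.1 of a whole read (91.9% to 96.8% of them). The authors' own macrophage analysis used fewer LPS libraries than the table holds, without naming which.

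Testing was kept to genes whose FPKM averaged more than 1 across a table, and was done on log2(FPKM + 0.5) with limma 3.58.1 in R 4.3.3 (1 fit per table, 3 groups, trend), adjusted by Benjamini-Hochberg over all genes tested, and called at an adjusted p below 0.05. An exact permutation test of 3 against 3 libraries cannot go below 0.1 and was not used. Alternatives were other pseudocounts, filters, scalings, priors and thresholds, fits of 2 groups, and leaving out each library. After the data were seen, libraries 1 and 3 of each group were averaged as 1 sample, and scalings were repeated without LPS library 2. The genes and lists were chosen with earlier results of these data known. Named were all 10 genes, the 2 genes per list with the largest Log2FC among those called, and the 3 genes most like the 2 members of widest range in each table. Ripk3, Pim2 and Ddit3 were given in full, and S100a8, Mmp8 and Cxcr2 named, after their values were seen. Rab7, Gusb, Eif4g1 and Gapdh were in none of the planned lists. The fits were also run on simulated data, with independent libraries and the spread of the Control and LPS + MIC-1 groups. That setting held no library like LPS library 2, so it does not bear on fits that hold one. Promoter, coding and gene sequences came from the mm9 genome, GENCODE and RefSeq. Tables and plots were made with Python 3.11.15, pandas 2.3.3 and matplotlib 3.10.9.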

Additional observations from a re-analysis of the deposited data

Results flagged for a closer look

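Bbc3 moved in opposite directions with LPS in the 2 sample types. In macrophages all 3 LPS libraries lay above all 3 controls (Log2FC 1.34, limma adjusted p 0.0777, which did not pass). For LPS library 2, which goes against its label, the gap was small, at 20.1 FPKM beside 17.4 FPKM in Control library 2. In liver all 3 LPS libraries lay below all 3 controls (Log2FC −0.99). The liver call did not hold when some libraries were left out in turn. The difference between the sample types was not tested, since the tables were normalized separately. Bbc3 here and Bak1 below were picked for opposite moves without overlap, so the lack of overlap is the rule and not a result. How many of all genes moved in this way was not counted.

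Bak1 showed the like for LPS + MIC-1 against Control, with all 3 macrophage libraries below the controls (Log2FC −0.42) and all 3 liver libraries above controls listed at 0. The liver Log2FC of 3.53 is set by the pseudocount. This difference was not tested either.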

How the results depend on the processing

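No paired analysis was possible because the columns carry no replicate numbers. Fits of only the groups compared called 2 of the 10 genes in macrophages for LPS + MIC-1 against LPS, where 5.59% of all genes passed, and 7 for LPS + MIC-1 against Control, where 58.2% did. The threshold that the study used for macrophages called 1 and 0, beside 3.87% and 5.59% of all genes. For liver the study instead used a p below 0.05 with an absolute Log2FC above 1. The macrophage threshold applied to liver called 3 between LPS and Control, beside 10.9% of all genes. Between LPS + MIC-1 and Control in liver it called 1, beside 13.5%. Rescaling to the same FPKM sum left 2 calls between LPS + MIC-1 and Control in macrophages, beside 14.3% of all genes. It turned the Log2FC with LPS to −0.44 for Bak1, −0.51 for Bax, −0.54 for Bcl2l11 and −0.15 for Pmaip1, and that of LPS + MIC-1 against LPS to 0.30 for Bax, 0.14 for Bcl2 and 0.24 for Bcl2l1. In liver it turned LPS against Control to −0.0418 for Bid, −0.0582 for Mcl1 and −0.14 for Pmaip1, LPS + MIC-1 against LPS to −0.13 for Bcl2l1 and −0.18 for Mcl1, and LPS + MIC-1 against Control to −0.57 for Bid and −0.23 for Mcl1. Median-of-ratios scaling turned LPS + MIC-1 against Control to 0.0079 for Bax in macrophages and −0.059 for Bid in liver. Chosen after seeing the data, averaging libraries 1 and 3 of each group as 1 sample, which leaves 2 samples a group, called 0 of these genes in each comparison of both tables, beside 0% of all genes in macrophages and 1.78%, 0% and 7.02% in liver for LPS against Control, LPS + MIC-1 against LPS and LPS + MIC-1 against Control, with Bcl2l1 at 0.15 for LPS + MIC-1 against LPS and Bax at 0.0104 for LPS + MIC-1 against Control in macrophages. Also chosen after seeing the data, the fit without LPS library 2 with equal sums called 10, 7 and 9 genes for LPS against Control, LPS + MIC-1 against LPS and LPS + MIC-1 against Control, beside 82.8%, 77.8% and 63% of all genes, with LPS at −0.68 for Bak1, −0.75 for Bax, −0.79 for Bcl2l11 and −0.27 for Pmaip1 and LPS + MIC-1 against LPS at 0.0731 for Bak1 and 0.54 for Bax. With median of ratios it called 9, 10 and 7, beside 75.3%, 68.4% and 60.5%, with Bcl2a1d at −0.35 for LPS + MIC-1 against LPS and Bax at 0.00701 for LPS + MIC-1 against Control. Leaving out each library in turn gave 0 to 9, 3 to 10 and 2 to 7 calls in the same order in macrophages, the upper ends without LPS library 2, and 3 to 6, 0 to 0 and 3 to 5 in liver. In macrophages it gave −0.35 to 0.52 for Bcl2a1d and −1.07 to 0.20 for Bcl2l1 between LPS + MIC-1 and LPS, and −0.106 to 0.0323 for Bax between LPS + MIC-1 and Control. In liver it gave −0.95 to 0.80 for Bcl2l1 between LPS + MIC-1 and LPS and −0.093 to 0.116 for Bid between LPS + MIC-1 and Control. The cause of these changes was not tested. Of the other values of single genes, 987 kept direction and side of the threshold, 60 newly passed and 56 no longer passed. Low liver levels rested on few estimated reads, 0 to 30 for Bcl2a1d and 14 to 41 for Bcl2l11.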
